A study of Mus musculus with 6 samples.

Results

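Mitochondria make most of a neuron's ATP by passing electrons from food molecules along the respiratory chain to oxygen. The nuclear genes that encode the subunits of this chain and of ATP synthase were followed here through 24 h of treatment of cultured mouse dorsal root ganglion (DRG) neurons. Members were all gene symbols that begin with Nduf followed by a, b, c, s or v and a digit, the 4 Sdh genes, all Uqcr genes, Cyc1, all genes named Cox4 to Cox8 and all Atp5 genes, with at least 10 raw counts in at least 3 of the 6 cultures. Of 35976 genes counted, 87 carried such a symbol and 81 met the count minimum. They comprised 35 genes of complex I, 4 of complex II, 9 of complex III, 16 of complex IV and 17 of complex V.

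RNA was sequenced from 3 cultures given vehicle and 3 given HC-HA/PTX3 at 15 µg/mL, a hyaluronic acid complex with inter-alpha-inhibitor heavy chain and pentraxin purified from human amniotic membrane. The neurons came from lumbar ganglia of naive adult C57BL/6 mice of both sexes, and the libraries were depleted of ribosomal RNA. In both groups the cells grew for 24 h on coated glass in DMEM/F-12 with serum before the agent or vehicle was added for another 24 h. The comparison asked how longer exposure to HC-HA/PTX3 changes transcription in sensory neurons. Such a culture also holds glia, fibroblasts and other cells of the ganglion, and all of them carry a respiratory chain. In bulk RNA, fewer cells of a type and less RNA per cell cannot be told apart.

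The vehicle libraries held 42516054, 42617496 and 54117547 counts for replicates 1, 2 and 3, and the HC-HA/PTX3 libraries 37998071, 37434266 and 38420247. The members took 0.4996%, 0.5013% and 0.5378% of all counts in the vehicle cultures and 0.5313%, 0.5329% and 0.5249% in the treated cultures. The treated shares lay inside the range of the vehicle shares. Levels of single genes are given in CPM, the normalised read count scaled to library size with TMM factors. A count of 0 allows a level of up to 0.0536 to 0.0808 CPM in these libraries, taking 3 counts as the limit. Such limits cover counting error only, since the reads carried no molecular identifiers.

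Complex I takes electrons from NADH, complex II from succinate, and both hand them to ubiquinone. Complex III passes them to cytochrome c and complex IV from there to oxygen, while complexes I, III and IV pump protons that complex V, the ATP synthase, lets back in to make ATP. Most subunits are encoded in the nucleus and imported, and a small set is encoded in mitochondrial DNA. Sensory neurons depend on this supply along very long axons.

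Few of these genes changed with treatment in the paired comparison. With the replicate number as a block and Benjamini-Hochberg adjustment over 18277 genes, the quasi-likelihood test of edgeR called 4 of the 81 members (4.94%) at an adjusted p under 0.05, against 19.2% of all tested genes. The members Atp5d and Ndufv1 rose, which makes 2 of 81 (2.47%) beside 7.67% of all tested genes. Uqcrc2 and Ndufa4l2 fell, again 2 of 81 (2.47%), beside 11.5%. Requiring an absolute log2 fold change over 0.5 as well left 0 members higher, against 3.32% of all tested genes, and 1 lower, Ndufa4l2, against 5.38%. At an unadjusted p under 0.05 the same test counted 8 members (9.88%), against 33.2% of all tested genes, and DESeq2, limma-voom, and ComBat-seq followed by limma also gave 0 members higher by that fold. Without a fold threshold the count depended on the tool. DESeq2 called 2 members (2.47%), against 17% of all genes it adjusted, and limma-voom 4 (4.94%), against 19.4%. ComBat-seq followed by limma called 21 (25.9%), 17 higher and 4 lower, against 40.7%. Among genes with a mean of at least 10 CPM, 3 of 74 members (4.05%) were called, against 23.9% of 10173 genes. Without the block, edgeR called 0 of the 81 members and 0 of the 18277 genes, with 3 members and 2089 genes at an unadjusted p under 0.05. With upper-quartile scaling 6 members (7.41%) were called, 4 higher and 2 lower, against 18.2% of all tested genes. Nothing in the labels says that the cultures came from separate animals, so these p-values measure only spread between cultures. In the fits with the block, that is the spread of the differences within numbered pairs.

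The size of the differences was bounded closely for most members. For 72 of 81 members (88.9%), the 95% interval of the log2 fold change, HC-HA/PTX3 over vehicle, lay within 0.5 of 0. It did so for 52.1% of all tested genes. The 9 members whose interval reached further were Ndufc2, Uqcrc2, Cox4i2, Cox6b2, Cox7a1, Ndufa4l2, Atp5e, Atp5g2 and Atp5k. Among genes with a mean of at least 10 CPM, the interval lay within 0.5 of 0 for 71 of 74 members and for 81.2% of all tested genes. All 3 treated cultures lay above all 3 vehicle cultures for 8 members (9.88%), a share close to the 9.44% of all tested genes. They lay below for 2 members (2.47%), Uqcrc2 and Ndufc2, against 8.57%. Within the numbered pairs, 22 members were higher in the treated culture all 3 times and 4 lower all 3 times, against 4609 and 5242 of the 18277 genes.

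The median log2 fold change over the 81 members was 0.05, with quartiles of -0.04 and 0.12 and a range of -0.98 to 0.27. Over all tested genes the median was -0.01, with quartiles of -0.20 and 0.18. A positive value was found for 51 members (63%) and for 48.9% of all tested genes. The members' median was 0.04 in pair 1, 0.09 in pair 2 and -0.01 in pair 3, so the small lift above 0 was not shared by every pair. By complex, the medians were 0.05 for I, 0.07 for II, 0.06 for III, 0.05 for IV and -0.00 for V. Within pairs 1, 2 and 3, the complex III median was 0.21, 0.06 and -0.11, and that of complex V was 0.08, 0.08 and -0.05. The complex I median turned to -0.01 without both replicate 2 cultures, and the complex III median to -0.01 without both replicate 1 cultures.

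**Figure D1:**
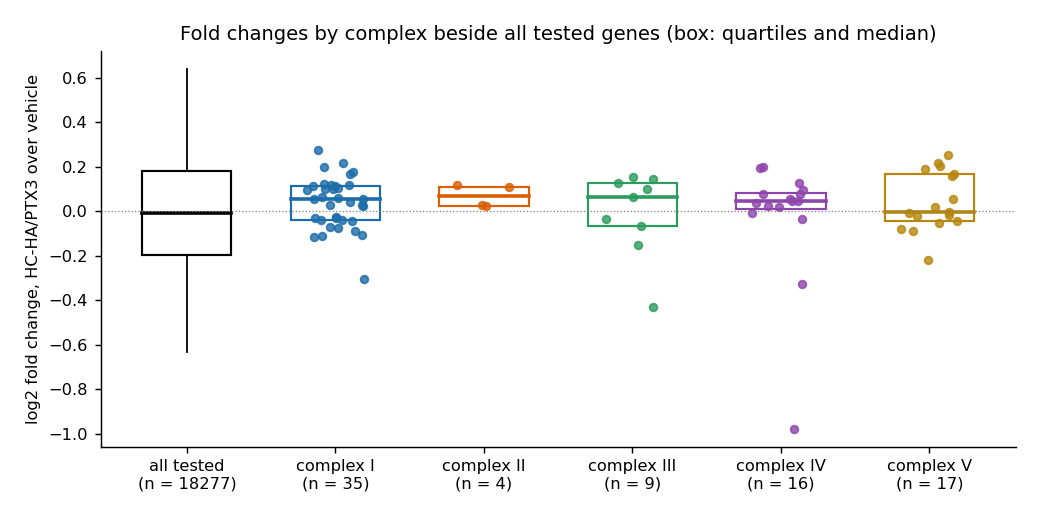
Log2 fold change (HC-HA/PTX3 over vehicle) of every member by complex, 1 point per gene, with boxes for the quartiles and median of each complex, beside a box for all 18277 tested genes whose whiskers run from the 5th to the 95th percentile. Most members sit between the quartiles of all genes, and Ndufa4l2 in complex IV and Uqcrc2 in complex III lie lowest.

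Summed over all members, the TMM-normalized level was 5304, 4973 and 5198 CPM in the vehicle cultures and 5439, 5263 and 5121 CPM in the treated cultures. The means were 5159 ± 169 and 5274 ± 159.7 CPM (SD, n = 3), and the groups overlapped. ATP synthase genes took the largest part of this sum, 36.5%, 38.2% and 38.5% in the vehicle cultures and 37%, 37.1% and 37.7% in the treated ones. Complex I took 26.9%, 26.1% and 26.1% against 26%, 27% and 26.4%. Complex III took 9.81%, 10.1% and 10.2% against 9.56%, 9.79% and 9.71%. The treated shares of complex III all lay below its vehicle shares by a narrow margin, and for the other complexes the groups overlapped. The complex III sum includes Uqcrc2, the only 1 of its 9 genes called lower, and 5 of the 9 had a positive log2 fold change.

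**Figure D2:**
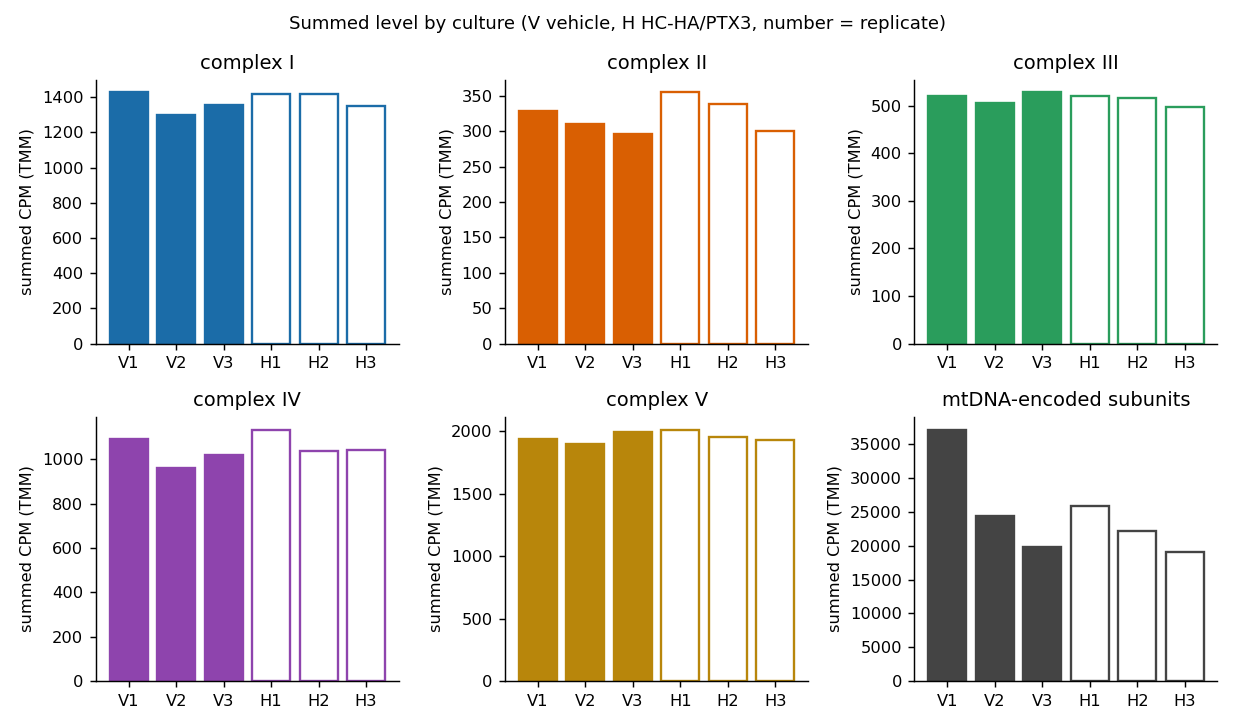
Summed TMM-normalized CPM of the members of each complex and of the subunits encoded in mitochondrial DNA, 1 bar per culture, filled for vehicle (V) and open for HC-HA/PTX3 (H), numbered by replicate. The groups overlap in every panel, and vehicle replicate 1 stands highest for the mitochondrial subunits.

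Complex I, the NADH dehydrogenase, was measured through 7 core subunits, which carry the flavin and most of the iron-sulphur clusters, and 28 accessory subunits, which build and stabilise the enzyme around the core. Its summed level was 1428, 1297 and 1356 CPM in vehicle and 1416, 1421 and 1353 CPM in treated cultures. The means of 1360.2 ± 65.6 and 1397 ± 38.1 CPM (SD, n = 3) were closer than the vehicle cultures were to each other. Of the 35 genes, 1 was called higher and 0 lower by edgeR, with 4 at an unadjusted p under 0.05, beside 7.67%, 11.5% and 33.2% of all tested genes. DESeq2 called 0 in either direction and limma-voom again 1 higher, beside 17% and 19.4% of all genes in either direction.

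The called gene was Ndufv1 (chr19:4007384-4012806, minus strand, mm10), the subunit that binds NADH and FMN and through which electrons enter the chain. Its level was 60.5, 61.7 and 65.7 CPM in vehicle replicates 1, 2 and 3, and 65.2, 75.8 and 77.8 CPM in treated replicates 1, 2 and 3. Each treated culture exceeded its own numbered partner, and treated replicate 1 fell just below vehicle replicate 3, so the groups overlapped. The means were 62.6 ± 2.75 and 72.9 ± 6.78 CPM (SD, n = 3), and the log2 fold change was 0.22 (SE 0.07, 95% interval 0.07 to 0.37, edgeR adjusted p = 0.0494). The call was lost with DESeq2 (adjusted p = 0.0978) and whenever any culture was left out (log2 fold change 0.17 to 0.27).

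Ndufb6 and Ndufc2, accessory subunits of the membrane arm, came next and did not pass the test. Ndufb6 measured 21.3, 19.4 and 23.0 CPM in vehicle and 24.9, 26.2 and 25.8 CPM in treated cultures, with every treated value above every vehicle value. Its log2 fold change of 0.27 (95% interval 0.07 to 0.47) had an edgeR adjusted p of 0.0579. Ndufc2 went the other way, with 20.0, 19.6 and 19.6 CPM in vehicle and 16.6, 17.7 and 13.9 CPM in treated cultures, all below. The vehicle cultures were almost identical for this gene, and treated replicate 3 was lowest. Its log2 fold change was -0.31 (95% interval -0.53 to -0.08, edgeR adjusted p = 0.0575).

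The remaining complex I genes had log2 fold changes between -0.12 (Ndufb4) and 0.20 (Ndufb2), and none passed the test. Ndufa8, an accessory subunit on the intermembrane side, was the other gene at an unadjusted p under 0.05, with 42.5, 40.5 and 41.2 CPM in vehicle, 48.1, 47.3 and 44.3 CPM in treated cultures and an edgeR adjusted p of 0.126. Ndufa8 and Ndufb4 were picked after their values were seen. Levels were compared between genes per kilobase of transcript, which depends on the 1 transcript length taken for each gene. On this scale Ndufb8 was most abundant in complex I at 84.8 CPM per kb and Ndufb2 least at 4.34. The length taken for Ndufb2 was 4371 bases, and its mean of 19.0 CPM lay above the 13.4 CPM of Ndufc1. For Ndufb8 the log2 fold change was 0.04 (95% interval -0.15 to 0.23).

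**Figure D3:**
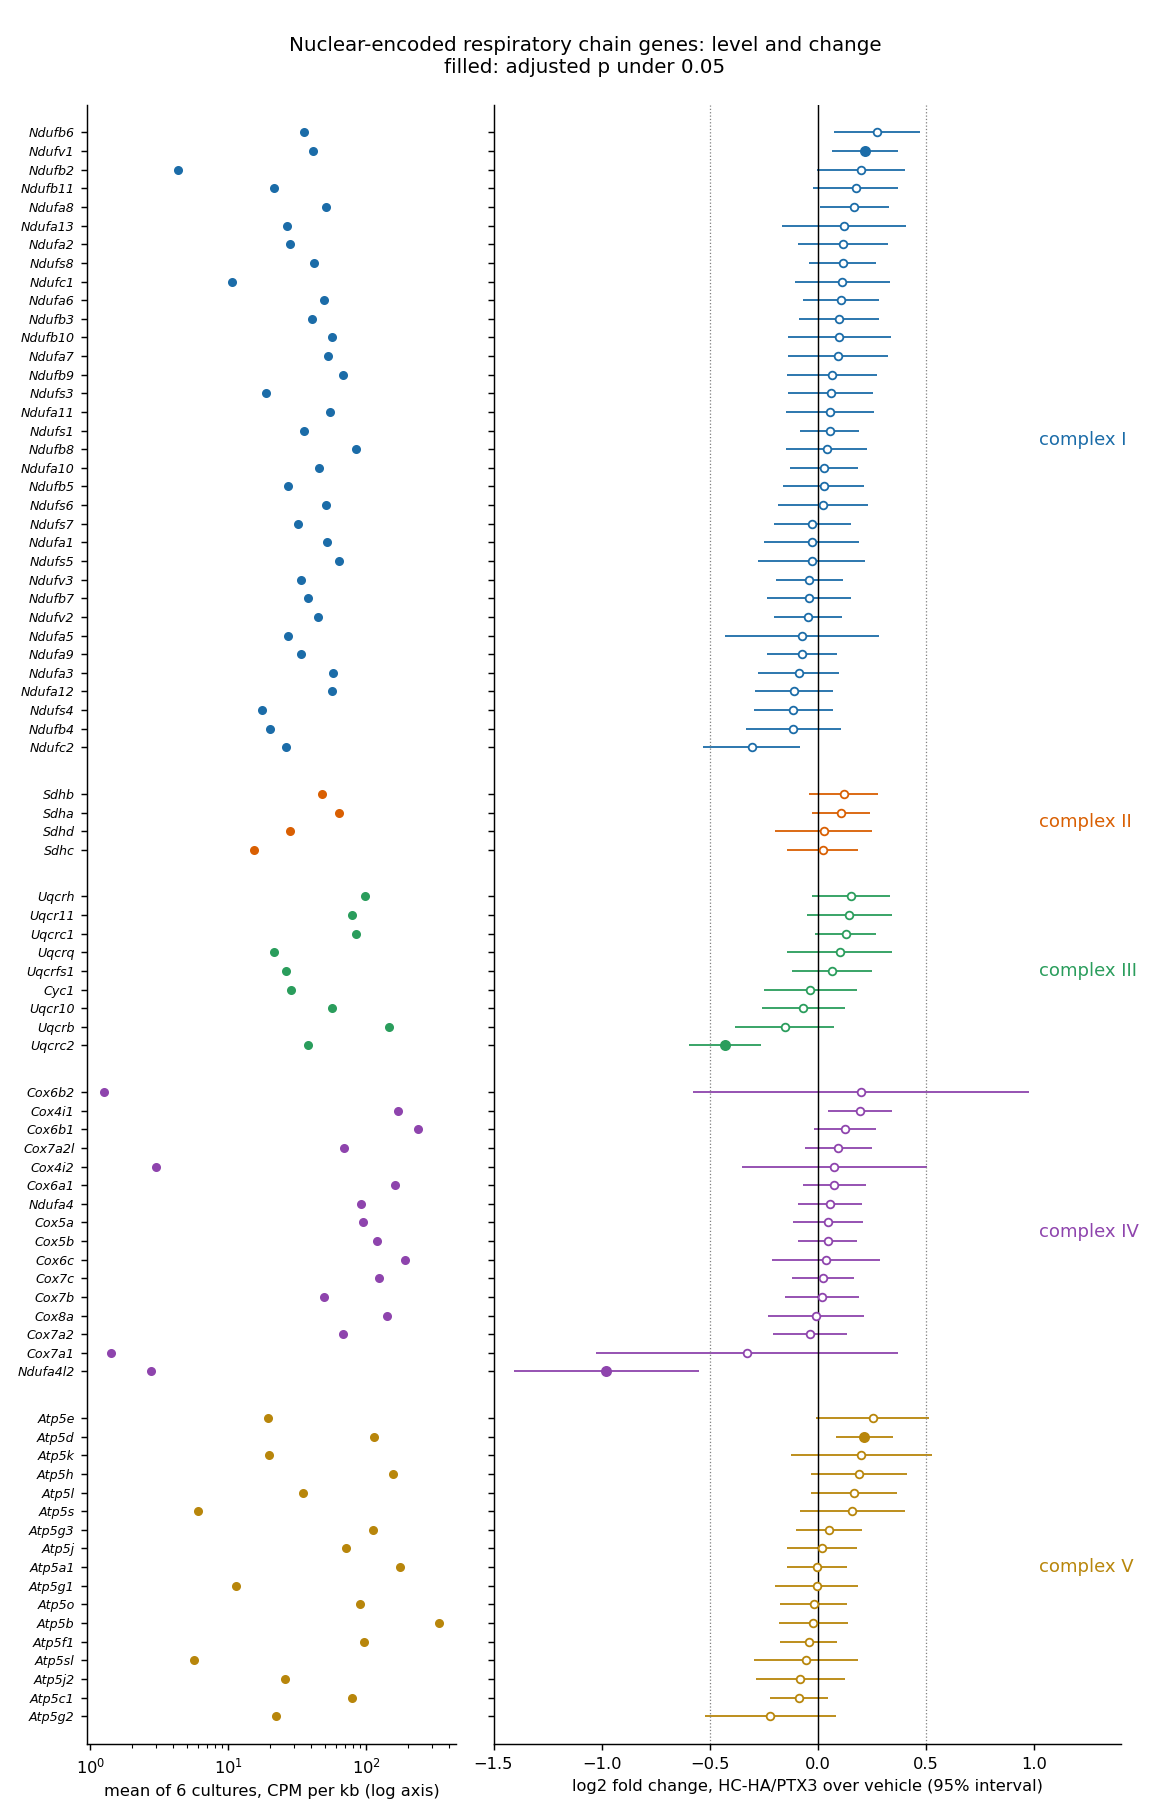
Log2 fold change with its 95% interval for 80 of the 81 members, grouped by complex with complex I on top, beside the mean level per kilobase of transcript on a log axis. Intervals of Uqcrc2, Ndufa4l2, Atp5d and Ndufv1 clear 0 with an adjusted p under 0.05, and the widest intervals belong to genes of low level such as Cox6b2 and Cox7a1.

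Complex II, succinate dehydrogenase, links the chain to the TCA cycle and has no subunit encoded in mitochondrial DNA. Its 4 genes summed to 329, 310.5 and 297 CPM in vehicle and 355, 338 and 301 CPM in treated cultures. Replicate 1 was highest and replicate 3 lowest in both groups, and each treated sum exceeded its partner. All 4 log2 fold changes were positive, from 0.02 to 0.12. None was called by edgeR, DESeq2 or limma-voom, and 0 had an unadjusted p under 0.05 in any of these. ComBat-seq followed by limma called 1 higher, in a setting that called 3594 of the 18277 genes higher.

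Sdha, the flavoprotein that oxidises succinate, was the most abundant of them at 63.3 CPM per kb. It measured 198, 172 and 160.5 CPM in vehicle and 211, 192 and 169 CPM in treated cultures. Each treated culture exceeded its partner, the order of the replicates was the same in both groups, and the groups overlapped (log2 fold change 0.11, 95% interval -0.03 to 0.24, edgeR adjusted p = 0.240). Sdhb, the iron-sulphur subunit, measured 48.8, 52.9 and 56.5 CPM against 57.7, 56.1 and 57.7 CPM (log2 fold change 0.12, 95% interval -0.04 to 0.28). Sdhc, a membrane anchor and the least abundant per length at 15.4 CPM per kb, had a log2 fold change of 0.02 (95% interval -0.14 to 0.19). The length taken for Sdhc was 3171 bases, and its mean of 48.9 CPM lay above the 34.2 CPM of Sdhd.

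Complex III, the cytochrome bc1 complex, held the fall with the smallest p-value. Uqcrc2 (chr7:120635176-120659524, plus strand, mm10) encodes core protein 2, which faces the matrix and with its partner Uqcrc1 forms the base of the dimer. Its level was 87.1, 78.6 and 81.9 CPM in vehicle and 61.6, 66.5 and 56.0 CPM in treated cultures. Every treated culture lay below every vehicle culture, with a gap wider than the spread in either group. The means were 82.5 ± 4.27 and 61.4 ± 5.21 CPM (SD, n = 3), a log2 fold change of -0.43 (SE 0.08, 95% interval -0.60 to -0.26, edgeR adjusted p = 0.00418). Its exons share 504 bases with Pdzd9 on the opposite strand, a gene chosen after its values were seen that measured 0.924 to 1.51 CPM in vehicle and 0.914 to 1.27 CPM in treated cultures. Pdzd9 had a log2 fold change of -0.03 (edgeR adjusted p = 0.955).

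Uqcrc1, the other core protein, did not pass the test. It measured 129, 132 and 139.6 CPM in vehicle and 151, 138 and 149 CPM in treated cultures, and treated replicate 2 lay inside the vehicle range. The log2 fold change was 0.13 (95% interval -0.01 to 0.27, edgeR adjusted p = 0.187). The electron carriers of the complex, Cyc1 and the Rieske protein Uqcrfs1, also chosen after their values were seen, had log2 fold changes of -0.03 (95% interval -0.25 to 0.18) and 0.06 (95% interval -0.12 to 0.25). Among accessory subunits, Uqcrb was most abundant in the complex at 145 CPM per kb and Uqcrq least at 21.6. The length taken for Uqcrq was 1521 bases, and its mean of 32.8 CPM lay above the 24.5 CPM of Uqcr10. Uqcrb measured 97.4, 75.1 and 72.6 CPM against 70.0, 84.4 and 65.1 CPM, with vehicle replicate 1 and treated replicate 2 high. Its log2 fold change was -0.15 (95% interval -0.38 to 0.07), and that of the hinge protein Uqcrh 0.15 (95% interval -0.03 to 0.33). Over 18 alternatives the value of Uqcrb ran from -0.33 to 0.01, with a call in 1, the fit without HC-HA/PTX3 replicate 2. The sum over the 9 genes was 521, 504 and 528 CPM in vehicle and 520.2, 515 and 497 CPM in treated cultures. The sums of the groups overlapped.

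**Figure D4:**
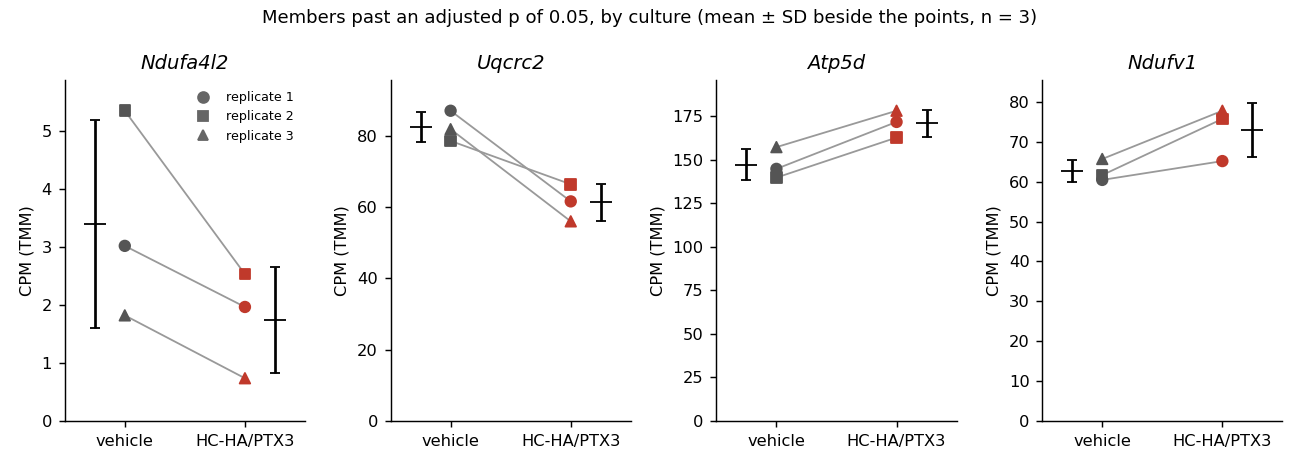
Level in each culture of the members past an adjusted p of 0.05, in TMM-normalized CPM, with lines joining vehicle and HC-HA/PTX3 cultures of the same replicate number and the mean ± SD (n = 3) beside the points. Uqcrc2 and Ndufa4l2 are lower and Atp5d and Ndufv1 higher in the treated culture of every pair.

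Complex IV, cytochrome c oxidase, builds part of its shell from isoforms that differ between tissues. Its members comprised 13 genes for subunits, Ndufa4 with its paralog Ndufa4l2, and Cox7a2l, a factor that joins complexes III and IV into supercomplexes. Ndufa4 was named as a complex I subunit and is now counted in complex IV. The sum over the 16 genes was 1091, 960.2 and 1019 CPM in vehicle and 1134, 1037 and 1040.3 CPM in treated cultures. Replicate 1 was highest in both groups, each treated sum exceeded its numbered partner, and the groups overlapped. By edgeR 0 were called higher and 1 lower, with 2 at an unadjusted p under 0.05, and DESeq2 and limma-voom gave the same counts. Of all genes, edgeR called 19.2%, DESeq2 17% and limma-voom 19.4%.

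Ndufa4l2 (chr10:127514967-127517154, plus strand, mm10) had the largest fold of all members. The gene is known as a target of hypoxia-inducible factor and as a transcript rich in pericytes. It measured 3.02, 5.35 and 1.82 CPM in vehicle and 1.97, 2.53 and 0.736 CPM in treated cultures, from raw counts of 121, 230, 102, 73, 96 and 29. The level was lower in the treated culture of each pair, while the groups overlapped because replicate 2 was high and replicate 3 low in both. Means were 3.40 ± 1.80 and 1.75 ± 0.918 CPM (SD, n = 3), and the log2 fold change was -0.98 (SE 0.19, 95% interval -1.41 to -0.55, edgeR adjusted p = 0.00735). Without both replicate 2 cultures the adjusted p was 0.0658 at a log2 fold change of -0.92, and without vehicle replicate 2 alone it was 0.0674. The gene shares 32 exon bases with Shmt2 on the opposite strand, which was chosen after its values were seen and had a log2 fold change of -0.22 (edgeR adjusted p = 0.0684).

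Its paralog Ndufa4 measured 59.8, 47.6 and 57.2 CPM in vehicle and 62.5, 50.8 and 57.6 CPM in treated cultures. Replicate 2 was lowest in both groups, each treated culture stood slightly above its partner, and the log2 fold change was 0.06 (95% interval -0.09 to 0.21). Per kilobase, Ndufa4l2 stood at 3.3%, 7.35% and 2.08% of the Ndufa4 level in vehicle and at 2.06%, 3.25% and 0.835% in treated cultures. The coding sequences are shown because Ndufa4l2 fell while its paralog did not pass the test. Both span 4 coding exons. Over 245 aligned bases 168 were identical (68.6%), with a longest identical run of 28 bases. Capitals mark the aligned identical bases in the coding sequences of GENCODE M21 on GRCm38, Ndufa4 at chr6:11900535-11907365 on the minus strand and Ndufa4l2 at chr10:127514982-127516499 on the plus strand, each written 5′ to 3′ with the introns left out.
Ndufa4: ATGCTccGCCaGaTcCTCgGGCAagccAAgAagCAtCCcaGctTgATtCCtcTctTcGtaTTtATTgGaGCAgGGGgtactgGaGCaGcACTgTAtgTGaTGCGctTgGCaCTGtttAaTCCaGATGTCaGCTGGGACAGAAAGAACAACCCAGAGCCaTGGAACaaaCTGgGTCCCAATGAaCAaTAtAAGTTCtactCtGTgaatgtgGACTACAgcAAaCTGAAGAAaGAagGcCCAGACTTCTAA
Ndufa4l2: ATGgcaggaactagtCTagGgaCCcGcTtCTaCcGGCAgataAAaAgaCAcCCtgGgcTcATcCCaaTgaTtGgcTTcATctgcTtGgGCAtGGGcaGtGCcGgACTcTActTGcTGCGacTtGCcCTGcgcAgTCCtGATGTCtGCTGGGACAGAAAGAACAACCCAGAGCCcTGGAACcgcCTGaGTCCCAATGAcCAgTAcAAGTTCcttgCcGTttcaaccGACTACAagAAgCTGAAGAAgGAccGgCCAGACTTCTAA

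The other isoform pairs of complex IV showed the ubiquitous form far above the tissue-restricted one. Cox4i1, the common isoform of a subunit that regulates the enzyme, measured 121, 115 and 124 CPM in vehicle and 151, 132 and 129.8 CPM in treated cultures. All treated values lay above all vehicle values, replicate 1 most, and the log2 fold change of 0.19 (95% interval 0.05 to 0.34) had an edgeR adjusted p of 0.0688. Cox4i2, its isoform of lung and oxygen-sensing cells, measured 1.72, 3.28 and 1.52 CPM against 1.62, 3.09 and 2.03 CPM, with replicate 2 highest in both groups as for Ndufa4l2. The log2 fold change of Cox4i2 was 0.08 (95% interval -0.35 to 0.50). Per kilobase it stood at 1.48%, 2.98% and 1.28% of the Cox4i1 level in vehicle and at 1.12%, 2.44% and 1.63% in treated cultures.

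Cox7a1, the isoform of heart and skeletal muscle, stood at 3.09%, 2.61% and 1.28% of the Cox7a2 level per kilobase in vehicle and at 2.36%, 1.6% and 1.52% in treated cultures. Cox6b2, known from testis, stood at 0.851%, 0.522% and 0.166% of Cox6b1 in vehicle and at 0.55%, 0.84% and 0.201% in treated cultures. These low genes were also the members nearest the count minimum, with counts of 34, 29 and 20 in vehicle and 26, 15 and 15 in treated cultures for Cox7a1. For Cox6b2 the counts were 49, 28 and 12 against 30, 47 and 11. Just outside lay the muscle isoform Cox6a2, with counts of 3, 9 and 28 in vehicle and 2, 9 and 14 in treated cultures. The muscle isoform Cox8b had 0 counts in every culture, the testis isoforms Cox7b2 and Cox8c at most 3 and 2, and the pseudogenes Uqcrh-ps1 and Atp5c1-ps at most 1 and 2. At this depth the log2 fold changes of Cox7a1 (-0.33, 95% interval -1.03 to 0.37) and Cox6b2 (0.20, 95% interval -0.58 to 0.98) were not resolved.

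The abundant forms were far better bounded. Cox6b1, which faces the intermembrane space, was most abundant in the complex at 237 CPM per kb and had a log2 fold change of 0.13 (95% interval -0.02 to 0.27). Cox6a1 stood at 160.0 CPM per kb with 0.08 (95% interval -0.07 to 0.22), and Cox8a at 142 CPM per kb with -0.01 (95% interval -0.23 to 0.21). For Cox7a2 the log2 fold change was -0.04 (95% interval -0.21 to 0.14), and for the supercomplex factor Cox7a2l 0.09 (95% interval -0.06 to 0.25).

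Complex V, the ATP synthase, comprised 5 genes of the F1 head and its central stalk, 10 of the membrane-bound Fo part and the outer stalk, and Atp5s and Atp5sl, which carry the symbol without being counted among the standard subunits. The sum was 1936, 1902 and 1999 CPM in vehicle and 2014, 1952 and 1930 CPM in treated cultures, with means of 1945 ± 49.5 and 1965 ± 43.8 CPM (SD, n = 3). The groups overlapped. By edgeR 1 gene was called higher and 0 lower, with 1 at an unadjusted p under 0.05, beside 7.67%, 11.5% and 33.2% of all tested genes. The counts of limma-voom were the same, and DESeq2 called 0.

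Atp5d (chr10:80138632-80145818, plus strand, mm10) encodes the delta subunit of the central stalk, the shaft that turns inside the F1 head. It measured 145, 139.7 and 157 CPM in vehicle and 172, 163 and 178 CPM in treated cultures. All treated cultures lay above all vehicle cultures, and replicate 3 was highest and replicate 2 lowest in both groups. Means were 147 ± 9.01 and 171 ± 7.73 CPM (SD, n = 3), and the log2 fold change was 0.22 (SE 0.06, 95% interval 0.08 to 0.35, edgeR adjusted p = 0.0306). DESeq2 gave an adjusted p of 0.0529, and leaving out any culture ended the call at log2 fold changes of 0.20 to 0.25. Its exons share 68 bases on the opposite strand with Cbarp, chosen after its values were seen, which had a log2 fold change of -0.07 (edgeR adjusted p = 0.486).

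Atp5e, the epsilon subunit that sits beside delta in the stalk, measured 7.24, 8.19 and 7.07 CPM in vehicle and 9.32, 9.68 and 7.87 CPM in treated cultures. It was higher in every pair, and the groups overlapped through treated replicate 3. The log2 fold change was 0.25 (95% interval -0.01 to 0.51, edgeR adjusted p = 0.161). The catalytic beta subunit Atp5b, the most abundant member of all at 338 CPM per kb, measured 618, 641 and 699 CPM against 683, 610.3 and 635 CPM (log2 fold change -0.02, 95% interval -0.18 to 0.14). Of the genes for the c-ring, the rotor in the membrane, Atp5g2 had the lowest log2 fold change in the complex. It measured 13.9, 20.0 and 18.2 CPM in vehicle and 15.7, 17.1 and 11.9 CPM in treated cultures. Treated replicate 3 alone lay clearly below the vehicle range for Atp5g2 (log2 fold change -0.22, 95% interval -0.52 to 0.08). Atp5sl, known as an assembly factor of complex I, was least abundant at 5.63 CPM per kb, with a log2 fold change of -0.06. The length taken for Atp5sl was 2387 bases, and its mean of 13.4 CPM lay above the 7.27 CPM of Atp5k.

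Promoters were compared as one further feature that the choice of members did not use. Sequences of 300 bases, from 250 before to 50 after the start of transcription in RefSeq on GRCm38.p6, were on hand for 64 of the 81 members and for 27025 symbols in all. Members without an entry included Ndufa2, Ndufb9, Ndufs1, Sdhc, Cyc1, Uqcrb, Uqcrc2, Uqcrq, Cox4i1, Cox4i2, Cox6c, Ndufa4l2, Atp5a1, Atp5f1, Atp5s and Atp5sl. On both strands, the letters GCGCATGCG, known for NRF1, were found in 8 of the 64 (12.5%) and in 1.82% of all promoters. CCGGAAG, known for ETS factors such as GABP, was found in 15 (23.4%) and in 9.22% of all. AAGATGGC, known for YY1, and AAGGTCA, known for estrogen-related receptors, were each found in 8 (12.5%), against 2.88% and 4.65% of all. At least 1 of these was present in 31 members (48.4%) and in 17.3% of all promoters. The shares of all promoters cover the 27025 symbols whether or not they were expressed here, and none was taken over tested genes alone.

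Members with a match had a higher median than those without for the NRF1, ETS and AAGGTCA letters, and a lower one for YY1. The median log2 fold changes were 0.14 with and 0.03 without the NRF1 letters, and 0.13 and 0.02 for the ETS letters. They were -0.05 and 0.06 for the YY1 letters and 0.11 and 0.04 for the AAGGTCA letters. These groups share members, and no test was made of them. A match is a description of the letters only, not a binding site or a cause.

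The promoters of the risen genes, Ndufv1 and Atp5d, are shown beside those of Atp5k and Atp5l, which held the most motifs of all members, 3 of the 4, and Ndufb8, the most abundant complex I gene. Capitals mark every match to a motif. Ndufv1 and Atp5d held none, which says only that these letters are not in this window. In Atp5k the NRF1 letters matched on both strands in overlapping positions from base -50 relative to the start, with the ETS letters after it and the AAGGTCA letters behind them. In Atp5l the NRF1 letters began at base -241 and the ETS letters matched at 2 places. In Ndufb8 the YY1 letters began at base 38 after the start. Ndufv1 is read from chr19:4012706-4013005 (minus strand), Atp5d from chr10:80142025-80142324 (plus), Atp5k from chr5:108434350-108434649 (minus), Atp5l from chr9:44920693-44920992 (minus) and Ndufb8 from chr19:44555393-44555692 (minus), all GRCm38.p6 and 5′ to 3′.
Ndufv1: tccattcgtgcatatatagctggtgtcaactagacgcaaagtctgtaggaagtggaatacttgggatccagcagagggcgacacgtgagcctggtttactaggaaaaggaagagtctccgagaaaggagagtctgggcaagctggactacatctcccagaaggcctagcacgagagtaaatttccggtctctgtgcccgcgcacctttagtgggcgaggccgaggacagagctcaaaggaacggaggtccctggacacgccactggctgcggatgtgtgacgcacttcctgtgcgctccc
Atp5d: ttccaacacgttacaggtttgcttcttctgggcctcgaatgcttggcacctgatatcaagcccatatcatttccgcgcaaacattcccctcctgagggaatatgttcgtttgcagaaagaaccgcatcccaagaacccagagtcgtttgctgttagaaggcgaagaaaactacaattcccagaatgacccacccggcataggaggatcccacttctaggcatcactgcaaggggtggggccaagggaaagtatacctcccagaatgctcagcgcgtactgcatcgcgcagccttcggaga
Atp5k: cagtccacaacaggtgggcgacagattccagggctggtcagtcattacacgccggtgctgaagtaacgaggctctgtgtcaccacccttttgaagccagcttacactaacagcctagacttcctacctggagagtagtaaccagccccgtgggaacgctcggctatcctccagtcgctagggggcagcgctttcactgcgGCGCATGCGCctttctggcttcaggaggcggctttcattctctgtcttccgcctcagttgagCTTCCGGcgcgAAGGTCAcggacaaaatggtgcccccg
Atp5l: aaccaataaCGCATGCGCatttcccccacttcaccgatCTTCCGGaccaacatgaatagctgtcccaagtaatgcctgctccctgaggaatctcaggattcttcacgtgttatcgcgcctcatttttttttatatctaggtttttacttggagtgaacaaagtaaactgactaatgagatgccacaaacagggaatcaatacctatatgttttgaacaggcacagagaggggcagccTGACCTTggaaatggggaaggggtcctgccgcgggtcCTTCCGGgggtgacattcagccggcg
Ndufb8: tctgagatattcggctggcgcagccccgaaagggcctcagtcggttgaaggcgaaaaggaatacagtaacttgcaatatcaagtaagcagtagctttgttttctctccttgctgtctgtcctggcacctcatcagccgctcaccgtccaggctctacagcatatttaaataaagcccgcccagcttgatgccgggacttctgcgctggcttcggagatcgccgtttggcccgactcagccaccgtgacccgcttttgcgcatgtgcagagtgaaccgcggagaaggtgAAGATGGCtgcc

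The 13 chain subunits encoded in mitochondrial DNA stood beside the nuclear genes. They took 3.501%, 2.455% and 2.046% of counts in vehicle and 2.526%, 2.25% and 1.95% in treated cultures, which is 7.008, 4.897 and 3.804 times the members' counts in vehicle and 4.755, 4.222 and 3.716 times in treated cultures. Share and ratio were lower in the treated culture of each pair, vehicle replicate 1 stood above the rest, and the groups overlapped. By edgeR, 1 of the 13 rose and 1 fell, a share near the 19.2% of all tested genes called. ND4, a proton-pumping subunit of complex I, measured 2570.2, 1617 and 1426 CPM in vehicle and 1604, 1142 and 1156 CPM in treated cultures (log2 fold change -0.50, 95% interval -0.67 to -0.32, edgeR adjusted p = 0.00289). ND3 measured 7.17, 5.05 and 7.23 CPM against 8.95, 6.75 and 9.93 CPM (log2 fold change 0.40, edgeR adjusted p = 0.0412). The call of ND3 was lost with DESeq2 (adjusted p = 0.0896) and with any culture left out (adjusted p = 0.12 to 0.142), and held in 7 of 18 alternatives, that of ND4 in 17. The levels of 6 of the 13 genes, ND3, ND4L, COX2, COX3, ATP6 and ATP8, are uncertain. Their means over all cultures ran from 1.67 CPM for ND4L to 11.1 CPM for COX2, far below the other 7, which ran from 459 CPM for ND6 to 10785 CPM for COX1. The share of counts and its ratio to the members therefore rest on those 7. Nuclear copies nearly identical to mitochondrial DNA are known to take reads from such genes, and their part here was not tested. COX1, the most abundant by CPM and per kilobase, had a log2 fold change of -0.17 (95% interval -0.34 to -0.00, edgeR adjusted p = 0.145).

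Assembly factors, which put the complexes together without staying in them, had no call higher and a few lower by edgeR. These are to be read beside 7.67% of all tested genes higher, 11.5% lower and 33.2% at an unadjusted p under 0.05. One gene, Uqcc3, fell further than any subunit. Of 10 factors of complexes II and III, 0 rose and 1 fell by edgeR, with 2 at an unadjusted p under 0.05. This was Uqcc3 (chr19:8880014-8880923, mm10), needed for the stability of cytochrome b in complex III, with 8.42, 7.54 and 8.30 CPM in vehicle and 3.07, 3.67 and 3.89 CPM in treated cultures. Treated levels lay far below all vehicle levels (log2 fold change -1.19, SE 0.14, 95% interval -1.51 to -0.88, edgeR adjusted p = 0.000938), and the call held with any culture left out. Of 3 factors of complex V, Atpaf1, a chaperone of the beta subunit, fell from 15.5, 12.3 and 12.9 CPM to 8.19, 9.15 and 9.40 CPM (log2 fold change -0.60, 95% interval -0.88 to -0.32, edgeR adjusted p = 0.00933). No treated culture reached the vehicle range for Atpaf1.

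Of 13 factors of complex I, 0 rose and 1 fell, with 2 at an unadjusted p under 0.05. This was Ndufaf1, which acts on the membrane arm, at 17.8, 14.4 and 17.6 CPM in vehicle and 9.03, 11.3 and 13.5 CPM in treated cultures (log2 fold change -0.57, edgeR adjusted p = 0.0151). All treated values lay below the vehicle values. Of 20 tested factors of complex IV, 0 rose and 2 fell, with 10 at an unadjusted p under 0.05, beside 33.2% of all tested genes. Taco1, which activates translation of COX1, had a log2 fold change of -0.42 (edgeR adjusted p = 0.0237) and Cox10, an enzyme of heme A synthesis, one of -0.37 (edgeR adjusted p = 0.018). The median of that list was nonetheless 0.11, so its called genes ran against its middle. All treated cultures lay above all vehicle cultures for 7 of its genes and below for 2, against 9.44% and 8.57% of all tested genes. DESeq2 and limma-voom called 0 assembly factors of any complex higher. ComBat-seq followed by limma called 1 of complex I, 4 of complexes II and III and 7 of complex IV higher, and 2, 2 and 3 lower, in a setting that called 3594 of the 18277 genes higher and 3853 lower. The calls of Atpaf1 and Ndufaf1 each held in 14 of 18 alternatives and those of Taco1 and Cox10 in 9. Without both replicate 1 cultures Ndufaf1 had a log2 fold change of -0.37.

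Among 13 transcription regulators of the chain, 0 rose and 2 fell by edgeR, with 6 at an unadjusted p under 0.05 and a median of -0.17. Of all tested genes, 19.2% were called and 11.5% were called lower, so 2 of 13 is a share near the background. By edgeR 33.2% of all tested genes had an unadjusted p under 0.05. DESeq2 called 1 lower, without Gabpb1, and ComBat-seq followed by limma 5 lower. The latter setting called 3853 of the 18277 genes lower. The call of Gabpb1 held in 4 of 18 alternatives and that of Gabpb2 in 11. Both fallen genes encode beta subunits of GABP, the ETS factor also called NRF2. Gabpb2 measured 40.4, 39.6 and 37.1 CPM in vehicle and 26.6, 37.0 and 23.5 CPM in treated cultures (log2 fold change -0.45, edgeR adjusted p = 0.0172). Gabpb1 measured 30.4, 32.5 and 34.3 CPM against 23.6, 28.5 and 28.2 CPM (log2 fold change -0.28, edgeR adjusted p = 0.0365). Neither had overlapping groups, though treated replicate 2 of Gabpb2 lay almost level with vehicle replicate 3. Pprc1, a coactivator of the PGC-1 family with the highest CPM of the list, not corrected for length, had a log2 fold change of -0.20 (edgeR adjusted p = 0.0831).

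Genes that feed the chain or carry its products were counted beside 19.2% of all tested genes called and 33.2% at an unadjusted p under 0.05. Of 11 carriers of electrons and nucleotides, edgeR called 0, with 2 at an unadjusted p under 0.05, and DESeq2 and limma-voom also called 0. The outer membrane channel Vdac1, the most abundant of them by CPM and per kilobase, had a log2 fold change of -0.03 (95% interval -0.16 to 0.11). This list also held Ndufab1, an Nduf symbol that the membership rule did not match, with a log2 fold change of -0.12 (edgeR adjusted p = 0.328). Of 17 TCA cycle genes, 1 rose and 3 fell. Suclg2, which makes succinate, had a log2 fold change of -0.56 (edgeR adjusted p = 0.0193) and fumarase Fh1 one of -0.35 (edgeR adjusted p = 0.0167). The NADP-dependent isocitrate dehydrogenase Idh2 lay just inside the threshold at -0.29 (edgeR adjusted p = 0.0496), and so did the rise, in the pyruvate dehydrogenase subunit Pdhb, at 0.20 (edgeR adjusted p = 0.0443), a gene chosen after its values were seen. DESeq2 called 0 of the 17 higher and 2 lower, without Idh2. The calls of Suclg2, Fh1 and Idh2 held in 12, 11 and 4 of 18 alternatives. Without both replicate 3 cultures Suclg2 had a log2 fold change of -0.36 (adjusted p = 0.11) and Idh2 one of -0.19. Fh1 measured 37.4, 37.7 and 38.1 CPM in vehicle and 28.4, 33.3 and 27.1 CPM in treated cultures, all below. Of 17 glycolysis genes, 2 rose and 1 fell. The neuronal enolase Eno2 had a log2 fold change of 0.30 (edgeR adjusted p = 0.00939) and the aldolase Aldoa one of 0.21 (edgeR adjusted p = 0.0429). The phosphofructokinase Pfkl had one of -0.26 (edgeR adjusted p = 0.0444), and DESeq2 called 2 higher and 0 lower in this list. Across 18 alternatives the calls of Eno2, Aldoa and Pfkl held in 16, 10 and 7.

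Hypoxia genes were listed because Ndufa4l2 and Cox4i2 are known to respond to low oxygen. Of 14 tested, 0 rose and 5 fell by edgeR, with 6 at an unadjusted p under 0.05 and a median log2 fold change of -0.10. Among all tested genes, 11.5% were called lower and 33.2% had an unadjusted p under 0.05. DESeq2 and limma-voom also called 5 of the list lower. Pdk1, the kinase that shuts pyruvate out of the TCA cycle, measured 30.9, 35.1 and 28.8 CPM in vehicle and 15.9, 20.1 and 21.1 CPM in treated cultures. No treated culture reached the vehicle range (log2 fold change -0.74, 95% interval -0.97 to -0.50, edgeR adjusted p = 0.0017). Adm, the vasoactive peptide adrenomedullin, had a log2 fold change of -0.91 (edgeR adjusted p = 0.00266), and the oxygen sensor Egln1 one of -0.51 (edgeR adjusted p = 0.00174). The calls of Pdk1, Adm and Egln1 each held in 17 of 18 alternatives. Pfkfb3, with the highest CPM of the list though not the highest level per kilobase, had a log2 fold change of 0.13 (95% interval -0.03 to 0.30).

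Other large protein machines gave a scale for the members' counts, beside the 7.67% of all tested genes called higher and 11.5% lower by edgeR. At an unadjusted p under 0.05 edgeR counted 33.2% of them. DESeq2 called 960 genes higher and 1721 lower, 17% of those it adjusted. ComBat-seq followed by limma called 3594 of 18277 genes higher and 3853 lower, 40.7% in all. Of 77 genes of the mitochondrial ribosome, which makes the subunits encoded in mitochondrial DNA, 1 rose and 8 fell, with a median of -0.02. DESeq2 called 1 higher and 5 lower, and ComBat-seq followed by limma 9 higher and 11 lower. Of 21 tested V-type ATPase genes, which encode a rotary proton pump of lysosomes and vesicles, 5 rose and 0 fell, with 11 at an unadjusted p under 0.05 and a median of 0.17. DESeq2 called 3 higher and 0 lower, and ComBat-seq followed by limma 11 higher and 1 lower. Of 83 tested cytosolic ribosomal protein genes, 2 rose and 0 fell, with 6 at an unadjusted p under 0.05 and a median of 0.02. DESeq2 called 1 of them higher and ComBat-seq followed by limma 4, with 0 lower by either. The median of the V-type ATPase list lay further from 0 than that of any complex of the chain.

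**Figure D5:**
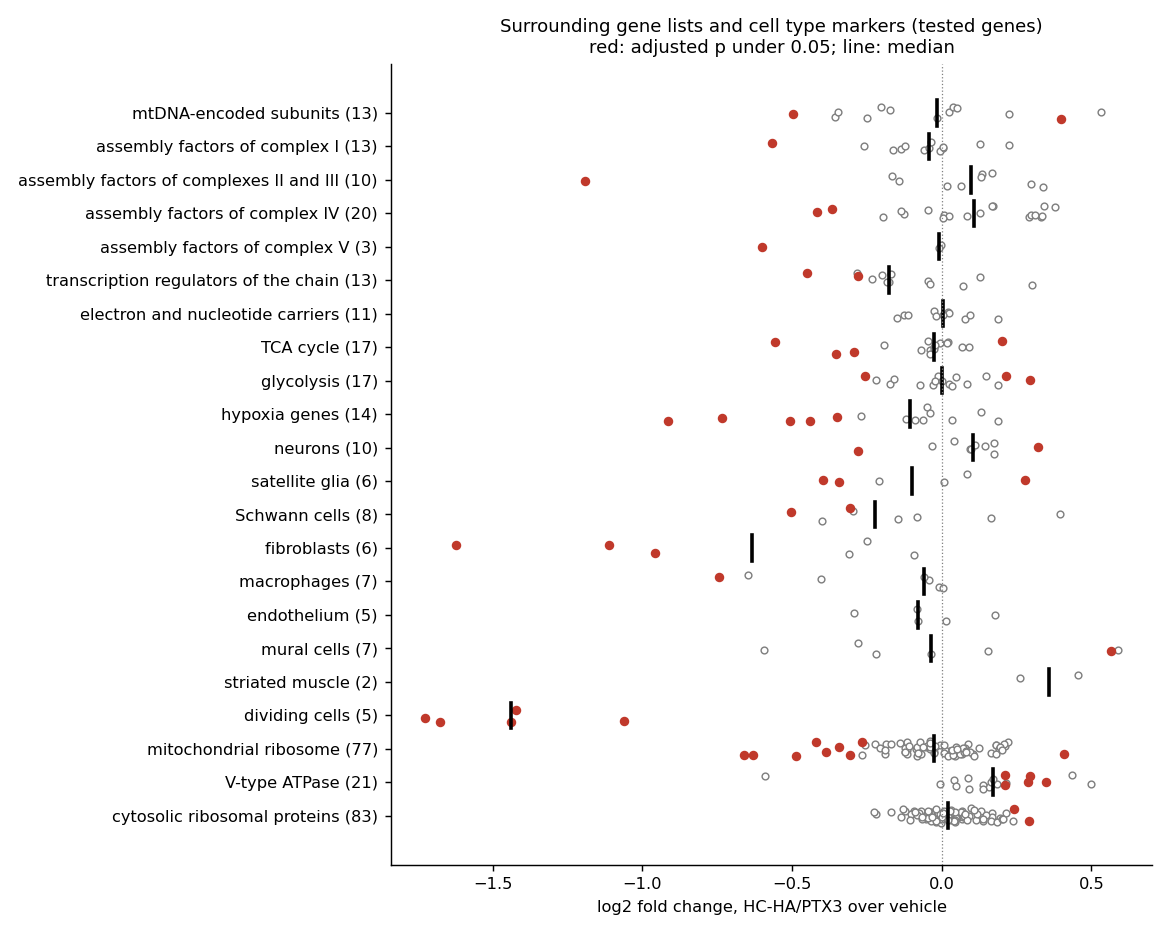
Log2 fold change (HC-HA/PTX3 over vehicle) of each tested gene in the lists around the chain and in the cell type markers, 1 point per gene, red where the adjusted p is under 0.05, with a line at each list's median. The median of the V-type ATPase list is 0.17 and that of the transcription regulators -0.17.

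Cell type markers were summed because each cell type contributes its own mitochondria to the RNA. Their calls by edgeR stand beside 7.67% of all tested genes higher and 11.5% lower, and lists of so few genes allow only coarse shares. All 10 neuron markers were tested, with 1 higher and 1 lower. Their sum was 10147, 7164 and 8115 CPM in vehicle and 10216, 7648 and 9449 CPM in treated cultures, led by the neurofilament gene Nefl, the gene with the largest part of the summed CPM. The sums of the groups overlapped, with replicate 1 highest in both and each treated sum above its numbered partner. All 7 mural cell markers were tested, with 1 higher and 0 lower, and summed to 437, 522 and 345 CPM in vehicle and 474, 520.1 and 289.6 CPM in treated cultures, led by Rgs5. Replicate 2 was highest and replicate 3 lowest in both groups, an order shared by Ndufa4l2 and by the fibroblast sum below. Unlike these, the mural sum was not lower in the treated culture of every pair. The 5 endothelial markers, led by Cdh5, gave 0 calls by edgeR, DESeq2 and limma-voom and 0 at an unadjusted p under 0.05, with sums of 228, 248 and 274 CPM against 229, 276 and 249 CPM.

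Of 6 fibroblast markers, 0 rose and 3 fell, with sums of 2138, 2152 and 895 CPM in vehicle and 1151, 1382 and 303 CPM in treated cultures, led by Col3a1. All 5 markers of dividing cells fell, with sums of 645, 439 and 196 CPM against 215, 220.0 and 34.9 CPM, led by Mki67. Both sums were lowest in replicate 3 of each group and lower in the treated culture of each pair. Satellite glia had 1 of 6 markers higher and 2 lower, with sums of 1907, 1027 and 395 CPM against 1806, 1045 and 421 CPM, led by Apoe. Schwann cells had 0 of 8 higher and 2 lower, with sums of 1401, 1009 and 808 CPM against 1280.4, 913 and 793 CPM, led by Pmp22. These glial sums were highest in replicate 1 and lowest in replicate 3 of both groups, and the Schwann cell sum was lower in the treated culture of each pair.

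Macrophages had 0 of 7 markers higher and 1 lower, with sums of 70.4, 91.6 and 78.6 CPM in vehicle and 67.0, 94.8 and 60.5 CPM in treated cultures, led by Lyz2. Of 10 striated muscle markers only 2 passed the count filter and 0 were called, with sums of 3.72, 2.12 and 2.02 CPM against 2.56, 4.22 and 2.67 CPM, led by Acta1. No marker of any cell type was at 0 in every culture. The part of these cell types in the levels of the respiratory chain genes was not tested.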

How the data were processed

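RNA was measured in 6 cultures, 3 per group, grouped by their labels. The authors deposited raw counts per gene symbol, with neither normalization nor pooling of replicates. Reads were aligned to mm10, with HISAT2 named in the methods and STAR in the file headers, and counted with featureCounts. The strand setting is not stated, and 28 of the 81 members share exon bases with another gene (25 on the opposite strand, 4 on the same strand), so reads there may be assigned to either gene.

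Counts were analysed in R 4.3.3 with edgeR 4.0.16 (filterByExpr, TMM, glmQLFit and glmQLFTest, replicate number plus treatment), and p-values were adjusted by Benjamini-Hochberg over 18277 genes. All 81 members passed the filter. Calls needed an adjusted p under 0.05, in places with an absolute log2 fold change over 0.5. Levels are TMM-normalized CPM, and levels per kilobase use the principal transcript of GENCODE M21, the longest where several ranked alike. Ranks per kilobase depend on that choice of length. The replicate numbers that both groups carry in their labels served as the pairing, since the batch of each culture is not given. Checked over all tested genes, deviations from group means correlated at 0.63, 0.54 and 0.77 in same-numbered cultures and at -0.61 to 0.15 in the others. Over the 81 members alone they correlated at 0.14, 0.50 and 0.83 in same-numbered cultures and at -0.71 to 0.36 in the others, so pair 1 did not stand out among the members. An exact permutation test of 3 against 3 cultures cannot go below 0.1 and was not used.

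Members and lists were chosen with earlier results of these data known. Genes were named by a rule. For each complex it took the most and least abundant member per kilobase, the largest rise and fall among members of at least 1 CPM, each member called with the fold threshold, and the 2 smallest p-values. It also took the isoform pairs of complex IV and, for each list, the gene of highest mean CPM and up to 3 called genes of largest change. Alternatives were no block, DESeq2 1.42.0, limma-voom (limma 3.58.1), ComBat-seq (sva 3.50.0) with limma, upper-quartile scaling, raw library sizes, 2 other count filters, offsets for length and GC content (mgcv 1.9.3), and each replicate or culture left out. The scripts' tests were checked on simulated data.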

Additional observations from a re-analysis of the deposited data

How the results depend on the processing

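Medians over all members (0.02 to 0.08), complex III (-0.01 to 0.14) and complex V (-0.02 to 0.06) moved by less than the spread between pairs under all 18 alternatives. Without the replicate block, when the design was not treated as paired, 0 members were higher and 0 lower, and 0 lower with the fold threshold, beside 0 of 18277 genes. DESeq2 gave 0 members higher. ComBat-seq with limma, which takes the corrected counts as if no batch had been removed, gave 17 higher and 4 lower beside 40.7% of all genes called, with a complex IV median of 0.0652. Upper-quartile scaling gave 4 higher and a complex IV median of 0.0778, and raw library sizes one of 0.0610. Keeping every gene with at least 1 count gave 1 higher and a median of 0.0283 for complex IV. Offsets for length and GC content gave 1 higher and a median of 0.0159 for complex IV. Leaving out cultures gave 0 to 1 members higher, 1 to 3 lower and 1 to 2 lower with the fold threshold, with medians of -0.0167 to 0.0752 for complex I, 0.0541 to 0.1531 for complex II and 0.0240 to 0.0799 for complex IV. The cause was not tested, except that fewer cultures leave fewer degrees of freedom. Leaving out a single culture leaves the pairs unbalanced, and the lone culture is assumed to vary like the others. Uqcrc2 stayed past the threshold in 17 of the 18 alternatives (-0.53 to -0.35), all but the fit without the block, where its adjusted p was 0.253. Ndufa4l2 stayed in 15 (-1.17 to -0.85), Atp5d in 7 (0.20 to 0.25) and Ndufv1 in 5 (0.17 to 0.27). Over the 67 named genes, 993 of 1205 values kept their side of the threshold, 191 lost the call, 21 gained it and 0 reversed. With 3 cultures a group, the smallest difference called among the members was a log2 fold change of 0.22, and the levels of Cox7a1 and Cox6b2 were too low for a narrow interval.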

Other observations

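The vehicle cultures differed among themselves in a set of chain subunits, which was chosen after its values were seen. In vehicle replicate 1, 9 members stood at least 25% above both other vehicle cultures, namely Ndufa13, Ndufa5, Ndufb3, Ndufs5, Uqcrb, Cox6b2, Cox6c, Cox7a1 and Atp5h. Cox6c, an accessory subunit of complex IV, measured 189, 118 and 117 CPM in vehicle and 145, 149.5 and 129.6 CPM in treated cultures. Atp5h, part of the outer stalk of ATP synthase, measured 119.5, 90.1 and 90.7 CPM against 108, 124 and 108 CPM. It was called higher by edgeR when vehicle replicate 1, HC-HA/PTX3 replicate 1 or both were left out. The treated cultures lay between the vehicle extremes for Cox6c, and for Atp5h treated replicate 2 was highest. Of the 81 members, 40 were highest in replicate 1 among the vehicle cultures, 10 in replicate 2 and 31 in replicate 3. For members of at least 10 CPM the median coefficient of variation over the vehicle cultures was 6.62%, beside 11.2% for all tested genes of that level. Across the 81 members, which share the same libraries, the Spearman correlation of log2 fold change with transcript length was -0.08. That of the log2 difference between vehicle replicates 1 and 2 with transcript length was -0.09.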
